A study of Mus musculus with 6 samples.

Results

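The mitochondrially encoded RNAs are the transcripts of the small circular genome inside mitochondria. They were taken as every row of the tables whose symbol starts with mt-, which gave 35 genes of 53927 symbols, 13 coding genes and 22 tRNA genes. The annotation of this genome lists 37 genes, and its 2 ribosomal RNAs, mt-Rnr1 and mt-Rnr2, were not analysed here. Total RNA of wild-type mouse embryonic stem cells (ESCs) was sequenced and compared between 2 serum-free media with 3 libraries in each. All 6 libraries came from cells in N2B27 with the MEK inhibitor PD0325901 at 1 µM. The 2i group also received CHIR99021, which blocks both GSK3 kinases, at 3 µM, and the BRD0705/PD03 group received BRD0705, which acts mainly on GSK3 alpha, at 8 µM. At issue is how RNA levels differ when the general GSK3 inhibitor is replaced by the GSK3 alpha inhibitor. The labels name the line E14, whereas the growth protocol speaks of B6D2F1 ESCs derived and grown on feeder cells in either medium. The Y-linked gene Ddx3y stood at 114 to 127 CPM in BRD0705/PD03 and at 2.84 to 3.32 CPM in 2i, so a difference in the cells and the difference in medium cannot be told apart.

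The mitochondrial genome encodes subunits of the respiratory chain and of ATP synthase, together with the ribosomal RNAs and tRNAs needed to translate them inside the organelle. Both of its strands are copied into long RNAs that span many genes, and these are cut apart largely at the tRNAs that lie between the coding genes. Most coding genes belong to the transcript named here the heavy-strand transcript, and mt-Nd6 with a minority of the tRNAs belongs to the light-strand transcript. After release the mRNAs differ in stability and are bound and protected by nuclear-encoded proteins.

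Totals ranged from 16968959 to 51180228 counts per library. Values are CPM, the usual depth-scaled count, after TMM scaling of the library totals, with BRD0705/PD03 replicates 1 to 3 given first and then 2i replicates 1 to 3. CPM per kb divides by annotated gene length and is used wherever genes are compared with each other. For tRNA genes, which are shorter than the usual fragment, it is only a rough guide. Fold changes are log2 of BRD0705/PD03 over 2i ± standard error from edgeR's quasi-likelihood test, with adjusted p-values over the 20422 genes tested and a threshold of 0.05. The stem cell markers Pou5f1 (686 ± 6.35 against 764 ± 54.9 CPM, SD, n = 3 per group) and Sox2 (289 ± 7.66 against 300.1 ± 14.7 CPM) were present in both groups. Across all genes tested, 30.1% were called higher in BRD0705/PD03 and 31.4% lower. Of the 10 stem cell markers listed, 5 were higher and 4 lower, Pou5f1 among the lower (adjusted p = 0.00866), and their summed level was 3092 to 3190 in BRD0705/PD03 and 3619 to 3918 CPM in 2i. Nanog (324 against 624 CPM) and Dppa5a (418 against 887 CPM) were lower and Zfp42 (257 against 116 CPM) and Utf1 (36.9 against 13.9 CPM) higher, all named after their values were seen. The part of these markers in the results below was not tested. Fibroblast markers, which feeder cells carry, were present too: in BRD0705/PD03, 20 of the 22 listed rose and 1 fell, none was at 0 counts, and their summed level was 1456 to 2073 against 981.5 to 1033 CPM. The fibroblast markers were tested against the results below only by using their mean level as a covariate. With that covariate the standard errors of the mitochondrial genes grew by a median factor of 4.58.

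The summed mitochondrial coding RNA took a smaller share of the libraries in BRD0705/PD03 than in 2i, and most of the gap lay in mt-Co1. The 13 coding genes held 0.976%, 0.960% and 0.924% of all counts in BRD0705/PD03 and 1.14%, 1.12% and 1.12% in 2i. Every BRD0705/PD03 library lay below every 2i library. With the counts of nuclear copies of these genes added, which are described below, the shares were larger. They were 1.528%, 1.535% and 1.491% in BRD0705/PD03 and 1.759%, 1.764% and 1.693% in 2i, also without overlap. mt-Co1, the oxidase gene described below, held 67.5% to 72.8% of the coding counts without copies, and 51.4% to 58.1% with copies. Without mt-Co1, a sum formed after the values were seen, the other 12 genes held 0.318%, 0.288% and 0.276% in BRD0705/PD03 and 0.331%, 0.315% and 0.305% in 2i, and the groups overlapped. For all 13 the means were 0.953% ± 0.0266 and 1.13% ± 0.0125 (SD, n = 3 per group), an exact permutation test gave p = 0.1, the smallest that 3 against 3 allows, and the adjusted p over 10 measures was 0.143. The 95% Wilson interval of each share was at most 0.00506 points wide on either side, for counting error only. In such bulk samples fewer mitochondria or mitochondrial genomes per cell, fewer cells of one type and less RNA from each cannot be told apart. The labels do not state whether the libraries are separate cultures, so p-values measure the spread between these libraries only.

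Of the 31 mitochondrial genes that passed the filter on low counts, 7 were lower and 0 higher in BRD0705/PD03 by edgeR, where 61.4% of all genes tested were called, 31.4% as lower and 30.1% as higher. At an unadjusted p under 0.05, 8 were lower and 0 higher, and DESeq2 called 5 lower and 0 higher. The median over the 31 was -0.21, and over all genes tested 0.0003. Among coding genes 4 of 13 were lower (mt-Co1, mt-Nd1, mt-Nd5 and mt-Nd6), and among tRNA genes 3 of 18 (mt-Ts1, mt-Te and mt-Tp). Groups did not overlap for 7 of the 31, against 66.0% of all genes tested. The differences were small, from -0.69 to 0.33 over all 31 and from -0.31 to 0.10 over the coding genes.

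**Figure D1:**
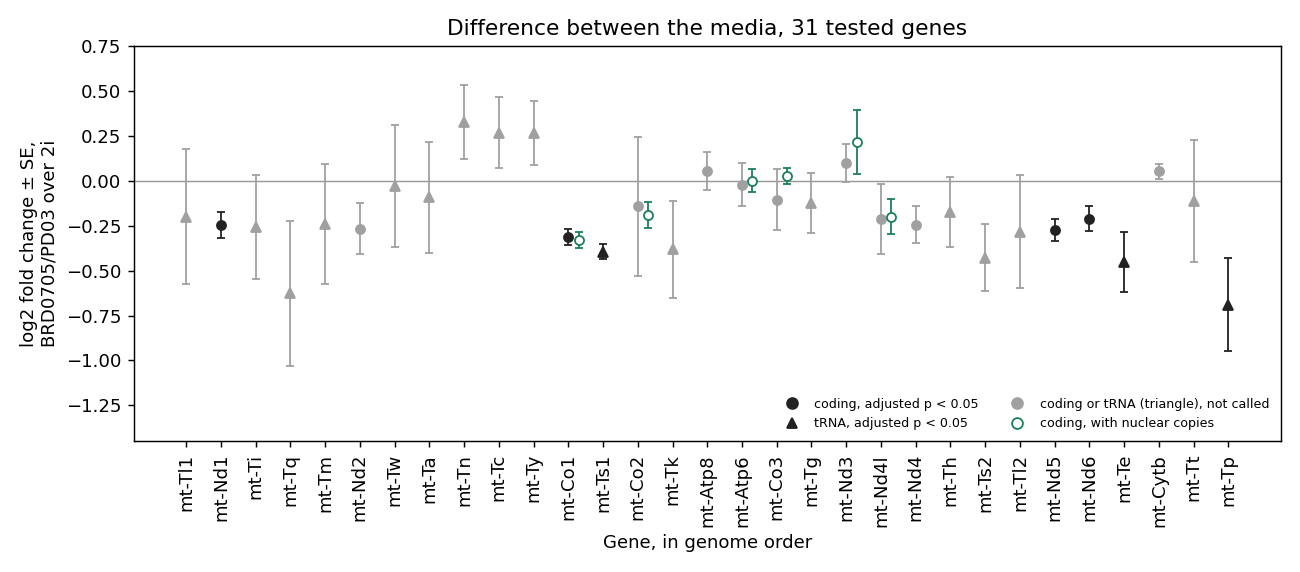
log2 fold change of BRD0705/PD03 over 2i (± SE, n = 3 per group) for the 31 mitochondrial genes tested, in genome order, with coding genes as circles and tRNA genes as triangles, genes past the adjusted threshold in black, and open circles for coding genes with their nuclear copies added. The 7 genes in black all lie below 0, and mt-Tn, mt-Tc and mt-Ty lie above 0 without passing the test.

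Reads of some coding genes cannot be placed with certainty, because the nuclear genome holds near-identical copies of part of the mitochondrial genome. A search of the GENCODE M21 transcripts found 11 nuclear gene models with at least 95% identity to a coding gene over at least 50% of their length. A row of 7 of them lies on chromosome 1 between 24611535 and 24616197 (GRCm38, minus strand), and they copy part of mt-Co1 and then mt-Co2, mt-Atp6, mt-Co3, mt-Nd3, mt-Nd4l and mt-Nd4. Together the copies received 33.8% to 38.0% of the counts of the coding genes plus copies in each library. Gm28661 matches 681 bases of mt-Co2 without a mismatch, Gm28437 matches 783 bases of mt-Co3 and Gm10925 matches 678 bases of mt-Atp6, also without a mismatch. How an estimator divides reads between identical sequences is not fixed by the sequence, so the sum of a gene and its copies is the better determined value.

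The copies differ from the mitochondrial genes at single bases in a few cases. These are shown because, within the aligned stretch of a pair, only reads over such a base can separate the reference sequences. Such a base separates nuclear from mitochondrial reads only if the mitochondrial DNA of these cells carries the reference base. Whether it does was not tested, and the labels and the growth protocol name different cells. Gm29216 aligns only to bases 1063 to 1545 of mt-Co1. Gm28438 carries T3C relative to mt-Nd3, and Gm29216 carries A1066T relative to mt-Co1, with positions counted from the first base of the mitochondrial gene. The mitochondrial windows are chrM:9459-9481 and chrM:6390-6413 (GRCm38, plus strand), the copies are written in the same direction, and the capital marks the differing base.
mt-Nd3: atTaacctgtacactgttatctt
Gm28438: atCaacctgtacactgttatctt
mt-Co1: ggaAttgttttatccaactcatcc
Gm29216: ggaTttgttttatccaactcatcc
Over the 345 aligned bases of mt-Nd3 and the 483 of mt-Co1 these were the only mismatches. Gm28438 received 78.9% to 82.7% of the counts of mt-Nd3 plus its copy in the 6 libraries. For mt-Co1 the share of Gm29216 was 15.7% to 17.5%, and that copy aligns to 483 of the 1545 bases of mt-Co1.

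The division moved between libraries where the sequences are identical. Gm28661 took 84.0% of the mt-Co2 pair in 2i replicate 3 and 94.8% in 2i replicate 1. Gm10925 took 9.0% to 17.3% of the mt-Atp6 pair and Gm28437 72.8% to 81.8% of the mt-Co3 pair. Gm10222, a copy of 294 bases of mt-Nd4l named after its values were seen, received 22.6% of that pair in BRD0705/PD03 replicate 2 and 0 counts in BRD0705/PD03 replicate 3 and 2i replicate 3. Gm28439, also named after its values were seen, matches 876 bases of mt-Nd4 without a mismatch and was listed at 0 in all 6 libraries. Gm13340 on chromosome 2, with 37 mismatches to mt-Co1, received 754 counts over the 6 libraries.

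**Figure D2:**
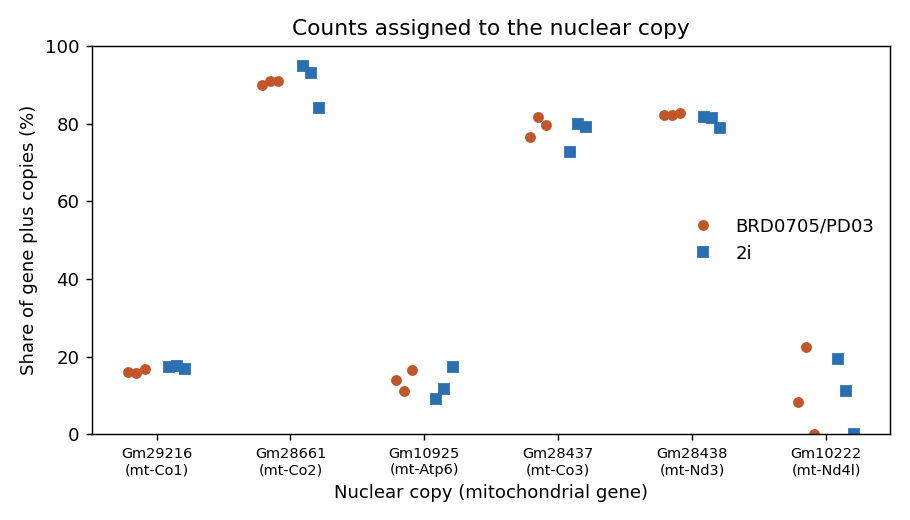
Share (%) of the counts of a mitochondrial gene plus its nuclear copies that was assigned to the copy, for 6 copies on chromosome 1, with 1 point per library. The share lies between 84.0% and 94.8% for Gm28661 and between 15.7% and 17.5% for Gm29216, and Gm10222 reaches 0 in 2 libraries.

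Per base, the coding genes differed far more from each other than between the media. With copies added, mt-Co1 had the highest level at 5735 CPM per kb (mean of the 2 groups), followed by mt-Co3 at 3987 and mt-Co2 at 2602, which encode the 3 core subunits of cytochrome c oxidase (complex IV). The ATP synthase gene mt-Atp6 stood at 863 CPM per kb, mt-Nd3 at 817 and mt-Nd1 at 730. Lower still were mt-Atp8 (393), mt-Cytb (335), mt-Nd4 (139), mt-Nd5 (92.1), mt-Nd2 (87.4) and mt-Nd4l (61.4 CPM per kb). The light-strand gene mt-Nd6 was lowest at 43.2 CPM per kb, 133 times below mt-Co1. The order depends on the copies: without them mt-Co2 stood at 238 CPM per kb and ranked 7, mt-Nd3 at 150 and ranked 8, and mt-Co3 at 863. Adding the copies raised mt-Co2 10.9 times, mt-Nd3 5.44 times and mt-Co3 4.62 times. Neighbours in the order such as mt-Atp6 and mt-Nd3, or mt-Nd5 and mt-Nd2, overlapped between libraries, as the plot of levels shows.

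**Figure D3:**
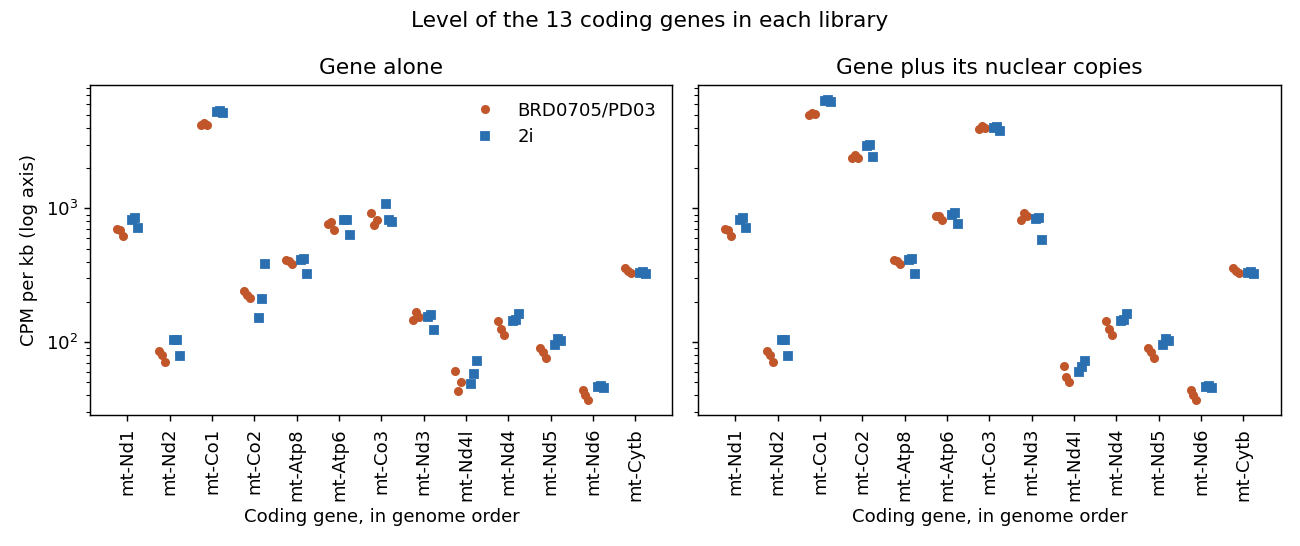
CPM per kb (log axis) of the 13 coding genes in each of the 6 libraries, in genome order, for the gene alone (left) and with its nuclear copies added (right). mt-Co2 rises from 238 to 2602 CPM per kb and mt-Co3 from 863 to 3987 with the copies, and mt-Nd6 is lowest in both panels.

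Complex IV passes electrons to oxygen, and its subunit genes differed in how they moved. mt-Co1 (chrM:5328-6872) encodes the subunit with the oxygen-reducing site. It stood at 6451, 6786 and 6478 CPM in BRD0705/PD03 and at 8180, 8249 and 8056 CPM in 2i. The groups did not overlap, and the difference was -0.31 ± 0.04 (edgeR adjusted p = 6.11e-06). With Gm29216 and Gm13340 added it was -0.33 ± 0.05. With copies added to all their genes 8 of the 31 were lower, where 61.5% of all genes were called.

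The gene mt-Co2 encodes the subunit that takes electrons from cytochrome c. Alone it was at 165, 155 and 146 CPM in BRD0705/PD03 and at 104, 143 and 264 CPM in 2i, and did not pass the test (-0.14 ± 0.39, adjusted p = 0.784). The 2i libraries spanned the range of the other group on both sides. With Gm28661 and Gm13341 it was at 1641, 1716 and 1634 against 1987, 2045 and 1655 CPM and was called lower by a small margin (-0.19 ± 0.07, adjusted p = 0.0468). The groups overlapped in that sum, since 2i replicate 3 lay among the BRD0705/PD03 libraries.

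The third core subunit gene, mt-Co3, did not move with mt-Co1. Alone it was at 723, 585 and 643 against 852, 638 and 616 CPM (-0.11 ± 0.17, adjusted p = 0.632). With Gm28437 it was at 3091, 3218 and 3153 against 3134, 3192 and 2968 CPM (0.03 ± 0.04, adjusted p = 0.638). The ratio of mt-Co1 to mt-Co3 within a library is free of the scaling between libraries. Its log2 value with copies was 1.32, 1.32 and 1.31 in BRD0705/PD03 and 1.66, 1.65 and 1.71 in 2i. The groups did not overlap and their means differed by -0.36 (exact permutation p = 0.1, adjusted p = 0.143). That ratio was not planned, and it sets mt-Co1, called lower, against a gene that was not called.

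Complex I, the entry point of NADH electrons, has 7 of its subunits encoded here, and 3 of the 7 genes were lower. Of all genes tested, 31.4% were called lower. mt-Nd1, a membrane subunit near the quinone site (chrM:2751-3707), was at 670, 657 and 591 CPM in BRD0705/PD03 and at 785, 807 and 679 CPM in 2i. The highest BRD0705/PD03 value lay just under the lowest 2i value, and the difference was -0.24 ± 0.07 (adjusted p = 0.0164). mt-Nd5, a proton-pumping subunit (chrM:11742-13565), was at 165, 154 and 139 against 174, 192 and 185 CPM, without overlap (-0.27 ± 0.06, adjusted p = 0.00164). mt-Nd6, the light-strand coding gene (chrM:13552-14070), was at 22.6, 20.9 and 19.0 against 24.1, 24.6 and 23.5 CPM, also without overlap (-0.21 ± 0.07, adjusted p = 0.0117). mt-Nd5 and mt-Nd6 overlap by 14 bases on opposite strands, and no source used here states whether counting took strand into account. For that reason RNA of the heavy-strand transcript across mt-Nd6 and mt-Nd6 RNA itself cannot be told apart.

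How mt-Nd6 stood relative to the heavy-strand coding genes depended on which of them were used. The log2 ratio of its counts to those of the 12 heavy-strand coding genes was -8.73, -8.85 and -8.92 in BRD0705/PD03 and -8.90, -8.86 and -8.88 in 2i. The groups overlapped and the means differed by 0.05 (exact permutation p = 0.6, adjusted p = 0.6). Most of that denominator was mt-Co1, which was itself lower, and the next ratios were added after the values were seen, with no test. Without mt-Co1 the log2 ratio was -7.10, -7.11 and -7.17 in BRD0705/PD03 and -7.097, -7.02 and -6.99 in 2i, so the groups nearly touched, and with nuclear copies added they overlapped. Relative to mt-Cytb it was -4.18, -4.22 and -4.29 in BRD0705/PD03 and -3.97, -3.97 and -3.97 in 2i, without overlap.

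The other complex I genes did not pass the main edgeR test. mt-Nd4, a proton-pumping subunit gene, was at 199, 172 and 156 against 197, 201.0 and 225 CPM (-0.24 ± 0.11, adjusted p = 0.0995), with a single BRD0705/PD03 library inside the range of 2i. It was called lower by DESeq2 (adjusted p = 0.00278). With edgeR it was called lower with no low-count filter (adjusted p = 2.53e-05) and without BRD0705/PD03 replicate 1 (0.00166). mt-Nd2 was at 89.5, 83.5 and 74.1 against 108, 107 and 82.0 CPM (-0.27 ± 0.14, adjusted p = 0.18), with 2i replicate 3 below the other 2i libraries. edgeR called mt-Nd2 lower with no low-count filter (adjusted p = 0.00182) and with replicate number as a block (6.9e-05). The same held without 2i replicate 3 (adjusted p = 0.0127). mt-Nd4l, which shares 7 bases with mt-Nd4, was at 18.1, 12.7 and 15.01 against 14.3, 17.1 and 21.4 CPM (-0.21 ± 0.19, adjusted p = 0.399). With Gm10222 added, mt-Nd4l was at 19.7, 16.4 and 15.01 against 17.8, 19.25 and 21.4 CPM (-0.20 ± 0.10, edgeR adjusted p = 0.104). With Gm28438 the sum for mt-Nd3 was at 285, 324 and 307 against 290.3, 297 and 202 CPM (0.21 ± 0.18, adjusted p = 0.37). In this sum 2i replicate 3 lay below all 5 other libraries, and mt-Nd3 alone differed by 0.10 ± 0.11 (adjusted p = 0.475).

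Cytochrome b of complex III, which hands electrons to cytochrome c, is encoded by mt-Cytb (chrM:14145-15288). It was at 410, 388 and 373 CPM in BRD0705/PD03 and at 377, 386 and 367 CPM in 2i. The groups overlapped and the test was not passed (0.05 ± 0.04, adjusted p = 0.306). The log2 ratio of mt-Co1 with its copies to mt-Cytb was 4.23 to 4.38 in BRD0705/PD03 and 4.70 to 4.73 in 2i, without overlap (means apart by -0.38, exact permutation p = 0.1, adjusted p = 0.143). Complex I genes as a whole relative to complex IV genes, with copies, had overlapping log2 ratios, of -3.19 ± 0.09 and -3.26 ± 0.07 (SD, n = 3 per group, exact permutation p = 0.4). Neither of these ratios was planned, and mt-Co1 was itself called lower.

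ATP synthase has 2 subunits encoded here, and their genes overlap by 43 bases in different reading frames. The junction is shown because reads within it belong to both genes, with the shared bases in capitals (chrM:7915-7981, GRCm38, plus strand).
mt-Atp8/mt-Atp6: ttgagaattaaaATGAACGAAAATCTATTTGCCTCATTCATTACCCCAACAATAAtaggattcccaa
The capitals open with the start codon ATG of mt-Atp6 and close with the stop codon TAA of mt-Atp8. mt-Atp8 was at 84.2, 82.2 and 78.6 against 84.5, 85.6 and 65.7 CPM (0.05 ± 0.11, adjusted p = 0.7). mt-Atp6 with Gm10925 was at 601, 603 and 559 against 609, 629 and 525 CPM (-0.0003 ± 0.06, adjusted p = 0.997). For both genes 2i replicate 3 was lowest of the 6 libraries and the groups overlapped.

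Counts at the tRNA genes were spread very unevenly. Together the 22 held 0.0361%, 0.0361% and 0.0361% of the counts in BRD0705/PD03 and 0.0439%, 0.0448% and 0.0436% in 2i, without overlap (exact permutation p = 0.1, adjusted p = 0.143). mt-Ts1 alone, a serine tRNA gene, held 75.7% to 86.1% of these tRNA counts in the 6 libraries. Without it the shares overlapped, at 0.0074% ± 0.00124 and 0.00663% ± 0.00065 (SD, n = 3 per group, exact permutation p = 0.5). The share without mt-Ts1 was not a planned measure. The 8 light-strand genes took 96.6% to 97.5% of the tRNA counts. Their median level was 128 CPM per kb, with a range from 4.71 to 4798, and the median of the 14 heavy-strand tRNA genes was 7.64 CPM per kb, with a range from 0.06 to 47.6. The 5 highest tRNA genes per base, mt-Ts1, mt-Ty, mt-Tc, mt-Tn and mt-Te, are all annotated on the light-strand transcript. Because no source used here states the use of strand, counts at these genes may also hold RNA of the opposite strand. Mature tRNAs are shorter than the fragments that such libraries usually hold, and no step that retains small RNA is named in the sources used here.

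**Figure D4:**
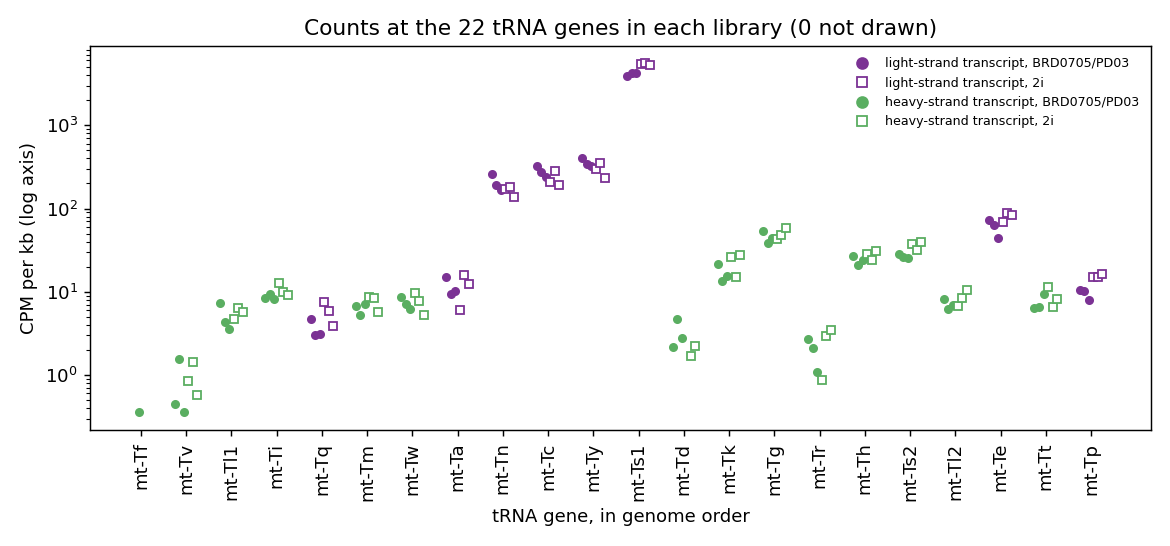
CPM per kb (log axis) at the 22 tRNA genes in each of the 6 libraries, in genome order, with light-strand genes in purple and heavy-strand genes in green, filled circles for BRD0705/PD03 and open squares for 2i. mt-Ts1 stands highest at a mean of 4798 CPM per kb, mt-Tn, mt-Tc and mt-Ty follow at 185 to 326, and 0 counts are not drawn.

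The most abundant of these sequences are given because their position, between or against coding genes, bears on what the counts hold. Each is written in the direction of the tRNA, read from the minus strand of GRCm38, and capitals mark bases shared with an overlapping gene.
mt-Ts1: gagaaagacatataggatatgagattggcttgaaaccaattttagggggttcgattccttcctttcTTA
mt-Ty: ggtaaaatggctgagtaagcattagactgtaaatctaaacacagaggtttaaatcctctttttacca
mt-Tc: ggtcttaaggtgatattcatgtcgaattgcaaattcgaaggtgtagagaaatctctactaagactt
mt-Tn: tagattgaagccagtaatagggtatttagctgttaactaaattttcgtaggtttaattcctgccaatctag
mt-Te: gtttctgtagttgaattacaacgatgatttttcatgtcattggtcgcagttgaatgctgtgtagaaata
mt-Ts1 (chrM:6870-6938) lies against the end of mt-Co1, and its 3 capitals TTA are the complement of the stop codon TAA that closes mt-Co1. mt-Tn, mt-Tc and mt-Ty (chrM:5089-5159, chrM:5192-5257 and chrM:5260-5326) sit side by side before the start of mt-Co1, and mt-Te (chrM:14071-14139) lies between mt-Nd6 and mt-Cytb.

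Per base of annotated length, counts at mt-Ts1 (69 bases) were of the order of those at mt-Co1 (1545 bases). Division by length is uncertain for a gene shorter than the usual fragment, so this ratio is a rough description only. The ratio of the 2 levels was 0.931 to 1.04 in the 6 libraries with mt-Co1 alone and 0.780 to 0.855 with its nuclear copies added, a ratio computed after the values were seen. In human mitochondria the mature mRNA of this oxidase gene is known to carry, after its stop codon, the complement of this serine tRNA. Since the use of strand is not stated, RNA of the tRNA and RNA of the opposite strand at this place cannot be told apart. mt-Ts1 was at 268, 294 and 296 CPM in BRD0705/PD03 and at 376, 382 and 369.9 CPM in 2i, with no overlap (-0.39 ± 0.04, adjusted p = 2.2e-07). The log2 ratio of mt-Ts1 to mt-Co1 alone per base was -0.10, -0.05 and 0.03 in BRD0705/PD03 and 0.04, 0.05 and 0.04 in 2i, means apart by -0.08 (exact permutation p = 0.1, adjusted p = 0.143). That log2 ratio was not among the planned measures.

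The 3 tRNA genes on the other side of mt-Co1 did not follow it. mt-Ty was at 27.1, 23.3 and 21.6 against 20.2, 23.4 and 15.6 CPM (0.26 ± 0.18, adjusted p = 0.266). mt-Tc was at 21.5, 17.96 and 15.8 against 13.6, 18.6 and 12.7 CPM (0.27 ± 0.20, adjusted p = 0.307). mt-Tn was at 18.4, 13.7 and 11.9 against 12.3, 12.8 and 9.70 CPM (0.33 ± 0.21, adjusted p = 0.231). In each of the 3 BRD0705/PD03 replicate 1 was highest of all libraries, 2i replicate 3 was lowest, and the groups overlapped. Their sum relative to mt-Co1 did not overlap, with a log2 ratio of -6.59, -6.95 and -7.04 in BRD0705/PD03 and -7.47, -7.23 and -7.73 in 2i. The means differed by 0.62 (exact permutation p = 0.1, adjusted p = 0.143). This ratio was not among the planned measures, and its denominator, mt-Co1, was itself called lower.

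A pair of less abundant light-strand tRNA genes was lower in BRD0705/PD03. mt-Te, a glutamate tRNA gene, was at 4.99, 4.39 and 3.04 against 4.80, 6.02 and 5.79 CPM (-0.45 ± 0.17, adjusted p = 0.028), and BRD0705/PD03 replicate 1 lay above the lowest 2i library. mt-Tp, a proline tRNA gene, has the highest position on chrM of the light-strand genes (chrM:15356-15422). It was at 0.708, 0.689 and 0.539 against 1.01, 0.996 and 1.10 CPM, without overlap (-0.69 ± 0.26, adjusted p = 0.0284). It rests on 159 counts over the 6 libraries. mt-Ta (1.05, 0.653 and 0.710 against 0.415, 1.10 and 0.867 CPM) and mt-Tq (63 counts in all, adjusted p = 0.193) did not pass the test.

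Of the 14 heavy-strand tRNA genes 10 were tested, and edgeR called 0 of them, with 1 lower at an unadjusted p under 0.05 and 0 called by DESeq2. Across all genes tested, edgeR called 61.4%. Their fold changes ran from -0.43 to -0.03. mt-Ts2, a serine tRNA gene, was at 1.69, 1.52 and 1.49 against 2.19, 1.89 and 2.33 CPM, without overlap, and just missed the threshold (-0.43 ± 0.19, adjusted p = 0.0535). The highest per base, mt-Tg, a glycine tRNA gene, was at 3.66, 2.61 and 3.01 against 2.90, 3.23 and 3.98 CPM with overlapping groups. mt-Th and mt-Tk had 329 and 233 counts in all, and mt-Ti, mt-Tl2, mt-Tt, mt-Tw, mt-Tm and mt-Tl1 had 79 to 125 each. Below the filter were mt-Td with 32 counts over the 6 libraries, mt-Tr with 30, mt-Tv with 12 and mt-Tf with 1. A library at 0 counts allows up to 0.0598 to 0.178 CPM, by the limit of 3 counts at its depth and for counting error only. These 4 genes were not tested in the main fit, so no difference is stated for them.

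The called genes differed in how firmly the calls held. mt-Ts1 was called under all 15 alternatives tried (adjusted p up to 0.00477), and mt-Co1 under all except the fibroblast covariate (-0.36 ± 0.21, adjusted p = 0.312). mt-Nd1 lost its call with upper-quartile factors (adjusted p = 0.118) and without 2i replicate 1 (0.0969) or 2 (0.137). mt-Nd5 lost it with upper-quartile factors (0.0536) and without 2i replicate 2 (0.0539) or 3 (0.0944). mt-Nd6 lost it with DESeq2 (0.0775), upper-quartile factors (0.0874) and without BRD0705/PD03 replicate 3 (0.105) or 2i replicate 2 (0.0731). mt-Te lost it with DESeq2 (0.0943), upper-quartile factors (0.0758) and without BRD0705/PD03 replicate 2 (0.052) or 3 (0.142) or 2i replicate 2 (0.153) or 3 (0.101). mt-Tp lost it with DESeq2 (0.225), with no filter (0.0635) and without BRD0705/PD03 replicate 3 (0.127), 2i replicate 2 (0.0645) or 2i replicate 3 (0.0753). Where a mean of at least 1 CPM was required, mt-Tp was not tested, and 6 mitochondrial genes were lower. With the fibroblast covariate mt-Nd1 (0.09 ± 0.34), mt-Nd5 (0.35 ± 0.20), mt-Nd6 (0.39 ± 0.28), mt-Te (1.33 ± 0.58) and mt-Tp (0.37 ± 1.24) changed sign without a call, and mt-Nd4 was called higher (0.75 ± 0.19, adjusted p = 0.0136). The count of 7 lower genes fell to 4 without BRD0705/PD03 replicate 3 and to 3 without 2i replicate 2. In other settings mt-Nd4 and mt-Nd2 gained a lower call, as given above.

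**Figure D5:**
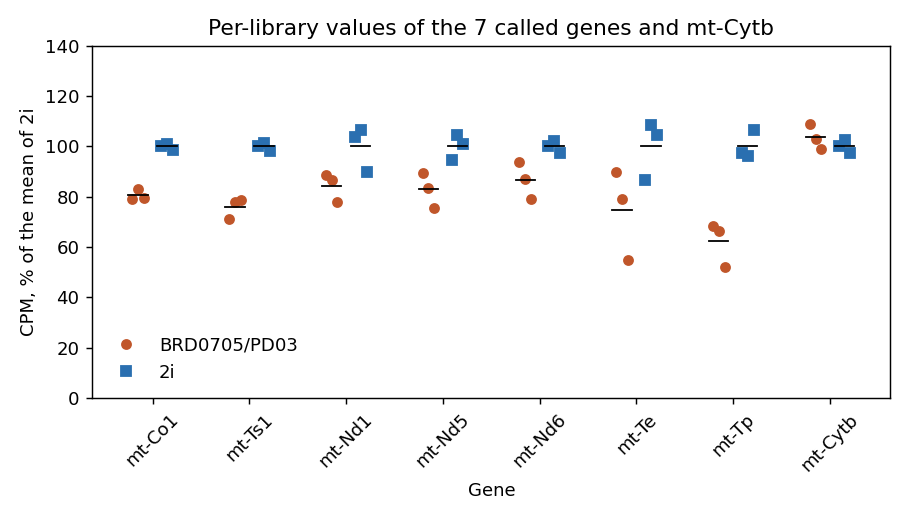
CPM of the 7 called genes and of mt-Cytb in each library, as a percentage of the mean of the 2i group, with 1 point per library and a bar at each group mean. For mt-Co1 and mt-Ts1 the BRD0705/PD03 points lie close together and below all 2i points, BRD0705/PD03 replicate 3 is lowest for mt-Nd1, mt-Nd5, mt-Nd6, mt-Te and mt-Tp, and mt-Cytb overlaps.

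Nuclear genes that copy the mitochondrial genome and transcribe it moved both ways. Of 20 tested, 6 were higher and 9 lower (median -0.11), where 30.1% of all genes tested were called higher and 31.4% lower. Tfam, which packages mitochondrial DNA and starts its transcription, was at 82.7 ± 2.51 against 93.6 ± 4.73 CPM (SD, n = 3 per group) and fell by 0.18 on the log2 scale (adjusted p = 0.00234). Polrmt, the mitochondrial RNA polymerase, was at 27.7 ± 0.197 and 26.7 ± 1.65 CPM and was not called (edgeR adjusted p = 0.437). Tefm, its elongation factor, rose by 0.55 and Tfb1m, an rRNA methyltransferase, by 0.77, whereas the DNA polymerase gene Polg fell by 0.52 and the pyrimidine carrier gene Slc25a33 fell by 0.79 (n = 3 per group, edgeR adjusted p at most 8.81e-07).

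Among 23 genes for processing and stability of mitochondrial RNA, 9 were higher and 7 lower (median 0.05), where 61.4% of all genes were called. Hsd17b10, an X-linked subunit of the enzyme that cuts tRNA 5′ ends, fell by 0.86. Rises were seen for the RNA-binding genes Fastkd3 (0.64 ± 0.05) and Fastkd2 (0.52 ± 0.05) and for Trnt1, which adds the CCA end to tRNAs (0.37 ± 0.04). Lrpprc, which stabilises mitochondrial mRNAs, was at 244 ± 7.11 against 222 ± 1.68 CPM (0.14 ± 0.04, adjusted p = 0.00382). Grsf1, a protein of mitochondrial RNA granules that was named after its value was seen, was at 113 ± 14.9 against 262 ± 4.27 CPM (-1.21 ± 0.10, adjusted p = 7.13e-05), the furthest from 0 of the genes on this list.

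Of 20 genes that modify mitochondrial RNA, 3 were higher, 10 were lower and 7 were not called (median -0.22), where 61.4% of all genes were called. Those with the smallest p all fell: Trit1 by 0.85 and Cdk5rap1 by 0.88, which act on the base next to the anticodon, the pseudouridine synthase gene Pus1 by 0.64 and the rRNA methyltransferase gene Mrm1 by 0.63. Of 13 tested regulators of mitochondrial biogenesis, 1 was higher and 6 lower (median -0.13), where 61.4% of all genes were called. The nuclear receptor genes Esrra (9.17 ± 0.638 against 15.9 ± 1.14 CPM) and Esrrb (279 ± 13.5 against 435 ± 12.6 CPM) and the X-linked Tfe3 (104 ± 1.29 against 134 ± 1.59 CPM) fell, and Creb1 rose (89.8 ± 5.98 against 55.3 ± 2.38 CPM). Ppargc1b, a coactivator of these receptors, did not pass the test (3.65 ± 0.173 against 3.45 ± 0.485 CPM), and its relative Ppargc1a was below the filter.

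Of 30 nuclear-encoded subunits of the complexes that also hold mitochondrial subunits, 9 were higher and 16 lower (median -0.13). The list mixes core subunits of complex I with accessory subunits of complex IV. The accessory oxidase subunit genes Cox7b, which is X-linked, and Cox5a fell by 0.96 and 0.60, and Ndufv2 of complex I and Cox8a fell by 0.35 and 0.28. Complex II, which has no mitochondrially encoded subunit, had Sdhc (0.45 ± 0.05) and Sdhb (0.20 ± 0.05) higher, with Sdha and Sdhd not passing the test. The share of a list that was called, such as 25 of the 30, stands beside 61.4% of all genes tested, and for the mitochondrially encoded genes it was 7 of 31.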

How the data were processed

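Per the labels' protocols, libraries were made from total RNA after ribosomal RNA depletion. The submitters' processing notes name Salmon and mm10, and the deposited values, all whole, were treated as estimated counts per gene symbol that the authors had rounded, with no scaling between libraries. No source used here states the annotation, the use of strand or how transcripts were summed to genes. Groups came from the sample titles. The members and gene lists were chosen with earlier results of these data known.

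Differential testing used edgeR 4.0.16 under R 4.3.3 (quasi-likelihood test, filterByExpr, TMM, robust, group only), two-sided, with Benjamini-Hochberg adjustment over 20422 genes. DESeq2 1.42.0 was an alternative. The steps were tested on simulated data. Per-library values were compared by exact permutation tests with scipy 1.17.1, adjusted over 10 measures. Planned among these were the shares of coding and tRNA counts and the ratio of mt-Nd6 to the heavy-strand coding genes. The others were not in the plan. Positions and sequences came from GENCODE M21 (GRCm38, also called mm10). Nuclear copies were found with blastn 2.17.0, and their counts were added to the member with the longest alignment. All members were to be named, with up to 4 called genes of the smallest p per companion list, Tfam, Polrmt, Lrpprc and Ppargc1b, and the 6 copies with most counts. Library pairs within a group differed beyond sampling noise (chi-square per degree of freedom 2.77 to 9.84).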

Additional observations from a re-analysis of the deposited data

How the results depend on the processing

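Leaving out each library in turn gave 3 to 8 mitochondrial genes lower and 0 to 2 higher, a coding median of -0.27 to -0.14, and 11718 to 12570 called genes over all. The log2 difference in share ran from -0.26 to -0.22 for coding genes, from -0.30 to -0.28 for tRNA genes, and the mt-Nd6 log2 ratio from -0.01 to 0.09. Companion lists then had 29 to 33 genes higher and 39 to 52 lower. Upper-quartile factors gave 3 genes lower and 1 higher (mt-Cytb), and testing with no low-count filter gave 8 lower and 3 higher (mt-Tn, mt-Tc and mt-Ty). The log2 coding share difference was -0.25, and -0.20 with copies added. In alternatives chosen after seeing the data it was -0.11 without mt-Co1 and -0.049 without mt-Co1 and with copies added. The mt-Nd6 difference of 0.05 became -0.089 without mt-Co1, -0.15 with copies added as well, and -0.26 relative to mt-Cytb. The tRNA share difference was -0.29, and -0.26 with the 20 most abundant nuclear genes left out of the total. With the fibroblast covariate 1 gene was lower (mt-Ts1), 2 were higher (mt-Nd4 and mt-Tn), the coding median was 0.27, and 2902 of all genes were called; that covariate lies apart between the groups, so the 2 cannot be told apart. The cause of these shifts was not tested. Depth limits the tRNA genes with under 160 counts. The planned results on ribosomal RNA were not run.

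The replicate block gave 8 genes lower and 2 higher (mt-Tn and mt-Ty), 12435 of all genes called, a coding median of -0.21, and 30 companion genes higher and 49 lower. Same-numbered libraries deviated from their group means with correlations of -0.00822, 0.034 and -0.0357, so the numbers were not taken to pair the libraries.

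Signs turned as follows. With the covariate the log2 fold change was 2.49 for mt-Tl1, 0.093 for mt-Nd1, 0.69 for mt-Tq, 0.24 for mt-Nd2, 0.99 for mt-Tw, 1.40 for mt-Ta, 0.92 for mt-Co2, 1.204 for mt-Tk, 0.16 for mt-Atp6, 0.27 for mt-Co3 and 0.84 for mt-Tg. It was also -0.26 for mt-Nd3, 0.75 for mt-Nd4l, 0.75 for mt-Nd4, 0.44 for mt-Th, 0.17 for mt-Ts2, 0.63 for mt-Tl2, 0.35 for mt-Nd5, 0.39 for mt-Nd6, 1.33 for mt-Te and 0.37 for mt-Tp. Upper-quartile factors gave 0.037 for mt-Tw and 0.044 for mt-Atp6, a mean of at least 1 CPM gave 0.0011 for mt-Atp6, and copies added gave 0.026 for mt-Co3. Leaving out single libraries turned uncalled genes, given here with their range over the 6 fits and the library whose absence turned the sign. These were mt-Co2 (-0.37 to 0.31), mt-Atp8 (-0.052 to 0.15), mt-Nd3 (-0.0059 to 0.20) and mt-Tg (-0.25 to 0.0069) without 2i replicate 3, and mt-Co3 (-0.19 to 0.061) and mt-Tt (-0.35 to 0.076) without 2i replicate 1. mt-Tl1 (-0.55 to 0.038) turned without BRD0705/PD03 replicate 3. mt-Tw (-0.20 to 0.12) and mt-Atp6 (-0.12 to 0.054) turned without BRD0705/PD03 replicate 3, 2i replicate 1 or 2i replicate 2, and mt-Ta (-0.32 to 0.27) without BRD0705/PD03 replicate 2 or 3 or 2i replicate 2.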
